A study of Mus musculus with 6 samples.

Results

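The 73 genes described here were at least 2-fold higher in organoids given 0.5 µg/ml doxycycline than in untreated organoids, while their mean level at 0.1 µg/ml stayed close to the untreated one. They were selected on measured values, out of 55416 genes in the table. CPM, the count of a gene divided by the sum of all counts of its library and multiplied by 1000000, had to average 1 or more in control, the ratio of the 0.1 µg/ml mean to the control mean had to lie from 0.85 to 1.15, the ratio of the 0.5 µg/ml mean to the control mean had to be 2 or more, and both 0.5 µg/ml libraries had to exceed the other 4 libraries. All 3 comparisons between groups were therefore used to choose the genes, and the members' own levels and ratios are given as a description, with no test.

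The organoids were grown in IntestiCult medium from intestinal epithelial cells of mice 4 to 8 weeks old that were Rosa26-rtTA Tg/Tg and Col1A1-TetO-OSKM Tg/Tg, both carried by every group, controls included. Control organoids had no doxycycline listed, and the treated groups received 0.1 µg/ml (the low dose) or 0.5 µg/ml (the high dose) for 3 days, with 2 biological replicates, one library each, in each of the 3 groups. The series' text does not say whether replicates came from separate mice, so the spread between them may be smaller than that between animals. No organoids lacking the OSKM cassette were among the samples, so an effect of doxycycline itself and an effect of the cassette cannot be told apart. The transactivator is driven from the Rosa26 locus, which is active in nearly all cell types, and is not restricted to 1 intestinal lineage.

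Doxycycline binds the reverse tetracycline transactivator, rtTA, which then switches on genes placed behind a TetO promoter. The cassette encodes OCT4, SOX2, KLF4 and c-MYC (OSKM), transcription factors that together can return differentiated cells to pluripotency and, over short exposures, move them part of the way. A small intestinal organoid is an epithelial culture that holds stem cells, Paneth cells, goblet cells, enteroendocrine cells and absorptive enterocytes. Some genes respond to an inducer in proportion to dose, and others only above a level of it. The study gave 2 concentrations in order to induce the factors to different degrees.

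Library totals were 45289760 to 72547738 counts, and the mitochondrial share was 7.19 to 8.16% in the 6 libraries. Pou5f1, which encodes OCT4, averaged 0.197 CPM in control, 139 at the low dose and 482 at the high dose. Sox2 averaged 0.217, 85.2 and 299 CPM in the same order, Klf4 31.4, 225 and 733 CPM, and Myc 45.7, 251 and 806 CPM. The factors were thus already far above control at the dose at which the 73 genes were near their control level. Summed markers of other cell types were low in CPM beside the epithelial sum, which was 6540 to 6620 in control, 7210 to 7330 at the low dose and 8170 to 8300 at the high dose. In the edgeR test given below, 6 of 14 epithelial markers were called higher and 7 lower at the high dose. Of all genes tested, 34.4% were called higher and 33.1% lower. Krt8 averaged 1180 CPM in control and 3000 at the high dose, and Hnf4a 847 and 342 CPM. Immune markers summed to 4.84 to 5.06, 6.93 to 7.45 and 14.2 to 14.7 CPM, with Cd3g, Adgre1 and Tyrobp at 0. Endothelial markers summed to 0.725 to 0.992, 2.26 to 2.48 and 4.74 to 5.03 CPM with Cdh5, Cldn5 and Emcn at 0, and fibroblast markers to 1.05 to 1.43 CPM in the control and low-dose libraries together and 2.45 to 2.95 at the high dose. Muscle markers summed to 0.751 to 1.33, 1.12 to 1.27 and 1.43 to 1.58 CPM, with Myod1 and Myog at 0. The part of such cells in the members' values was not tested.

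The promoters of 5 of the 6 members with the highest ratios are printed first, so that the genes that stand highest can be compared for matches to the factors' motifs. Each runs from 250 bases before to 50 bases after the annotated start, 5′ to 3′ on the gene's own strand, from RefSeq on GRCm38.p6. Capitals mark exact matches, on either strand, to CATTGT (the SOX core), CACCC or GGGCGTGG (KLF core and consensus), CCAAT or TGACTCA (the AP-1 site), and neighbouring or overlapping matches run together. Tubb3 lies at chr8:123411303-123411602 on the plus strand, Rapgef4 at chr2:71980965-71981264 on the plus strand, Sbsn at chr7:30751221-30751520 on the plus strand, Zfp28 at chr7:6383068-6383367 on the plus strand, and Gpc2 at chr5:138279888-138280187 on the minus strand. Vwa1, the fourth by ratio, was not matched.
Tubb3: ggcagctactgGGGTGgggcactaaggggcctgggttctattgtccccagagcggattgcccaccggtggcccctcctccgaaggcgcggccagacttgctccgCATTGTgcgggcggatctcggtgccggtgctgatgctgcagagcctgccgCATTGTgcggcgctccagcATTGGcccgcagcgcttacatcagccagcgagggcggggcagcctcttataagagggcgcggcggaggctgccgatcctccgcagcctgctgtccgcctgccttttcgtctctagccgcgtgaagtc
Rapgef4: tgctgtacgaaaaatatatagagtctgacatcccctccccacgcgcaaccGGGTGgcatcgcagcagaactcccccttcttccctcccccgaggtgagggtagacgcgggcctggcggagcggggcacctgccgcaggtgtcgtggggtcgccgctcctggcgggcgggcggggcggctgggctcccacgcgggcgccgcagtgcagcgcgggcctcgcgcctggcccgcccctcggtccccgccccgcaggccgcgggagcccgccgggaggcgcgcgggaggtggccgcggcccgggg
Sbsn: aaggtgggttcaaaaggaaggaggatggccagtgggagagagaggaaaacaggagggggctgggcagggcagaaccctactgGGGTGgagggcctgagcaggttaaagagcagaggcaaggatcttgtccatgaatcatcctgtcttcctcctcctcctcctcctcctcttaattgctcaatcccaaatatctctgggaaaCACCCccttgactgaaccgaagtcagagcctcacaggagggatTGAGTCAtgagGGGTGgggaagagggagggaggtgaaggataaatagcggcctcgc
Zfp28: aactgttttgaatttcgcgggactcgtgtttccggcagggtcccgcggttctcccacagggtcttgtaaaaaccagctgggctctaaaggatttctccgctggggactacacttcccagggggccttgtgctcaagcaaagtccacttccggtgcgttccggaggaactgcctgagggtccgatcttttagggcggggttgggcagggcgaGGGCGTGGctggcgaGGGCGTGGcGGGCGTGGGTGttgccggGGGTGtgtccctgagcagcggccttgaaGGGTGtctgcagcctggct
Gpc2: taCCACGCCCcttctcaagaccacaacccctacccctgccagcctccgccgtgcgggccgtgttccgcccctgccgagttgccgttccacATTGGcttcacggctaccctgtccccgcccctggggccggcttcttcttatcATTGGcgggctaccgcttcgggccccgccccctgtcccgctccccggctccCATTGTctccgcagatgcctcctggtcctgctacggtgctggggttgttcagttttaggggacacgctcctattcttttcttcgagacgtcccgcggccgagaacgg

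Each of the 5 windows held a KLF string, the core in 4 and the consensus without the core in Gpc2, and no single string was in all 5. Tubb3 held the SOX core, the KLF core and a CCAAT box, and Gpc2 held the SOX core, the KLF consensus and a CCAAT box. Rapgef4 held the KLF core alone, Zfp28 both KLF strings, and Sbsn the KLF core with an AP-1 site. Over all members, 56 genes were matched to 70 windows, 17 genes were not matched, and the members' windows were compared with all 32851 windows and with the 12057 windows of genes that met the control minimum. The octamer ATGCAAAT, the string bound by OCT4, was in none of the members' windows (0%), in 1.74% of all windows and in 1.37% of those of expressed genes. The SOX core was in 11.4% of the members' windows, 12.6% of all and 7.57% of expressed ones, the KLF core in 71.4%, 57.5% and 62.9%, and the KLF consensus in 10.0%, 5.33% and 9.99%. The E-box CACGTG, the string bound by MYC with its partner MAX, was in 7.14%, 7.15% and 10.1%. CCAAT boxes were in 38.6%, 37.4% and 38.5%, TATAAA in 5.71%, 13.6% and 7.28%, AP-1 sites in 5.71%, 5.20% and 3.85%, and the cyclic AMP response element TGACGTCA in 2.86%, 1.79% and 3.12%. Median GC content was 62.3% in the members' windows, 60.7% in those of expressed genes and 52.7% in all. Strings of 5 or 6 letters occur often in windows of 300 bases, and a match is no evidence of binding.

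Genes with this pattern were a small share of those higher at the upper dose. Of the 12677 genes of at least 1 CPM in control, 849 were at least 2-fold higher at the high dose with no overlap between libraries. Their ratio at the low dose lay above the window in 759 (89.4%), within it in 73 (8.60%) and below it in 17 (2.0%). The 73 members were 0.576% of the 12677 genes. The window itself was common, since 7864 of the 12677 genes (62.0%) had a low-dose ratio inside it. Leaving out the condition on overlap would add a single gene, Gm10259, whose libraries ranged from 1.58 to 18.9 CPM.

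**Figure D1:**
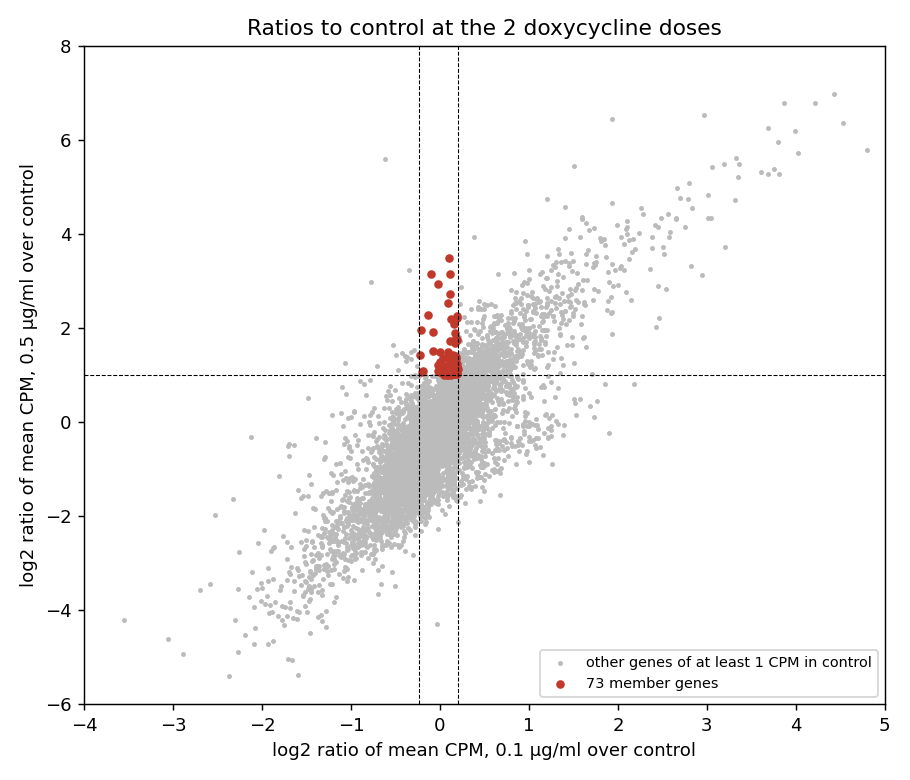
Log2 ratio of the mean CPM at the high dose to control (vertical axis) against the log2 ratio at the low dose to control (horizontal axis) for genes of at least 1 CPM in control, of which 12670 fall within the axes and 7 outside them. Dashed lines mark the bounds 0.85, 1.15 and 2. The 73 members (red) fill the box between the vertical lines and above the horizontal one, and most genes above that line lie to the right of the box.

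Members covered a wide range of levels. Their control means ran from 1.00 to 246 CPM with a median of 9.49, and their high-dose means from 2.38 to 519 CPM with a median of 28.9. The ratio of 0.5 µg/ml to control had a median of 2.44 and ran from 2.0 to 11.3. It was 4 or more in 11 members, 3 or more in 18, and under 2.5 in 38, so more of the members sat near the lower bound than well above it. Per transcript length, the members' median level was 3.96 TPM (a transcript share scaled to a fixed total) in control and 11.1 TPM at the high dose. The higher of the 2 libraries at the high dose was at most 1.38 times the lower one (1700016C15Rik), with a median of 1.05. The gap between the lower library at the high dose and the highest of the other 4 was 2-fold or more in 39 members, with a median of 2.05 and a low of 1.54 in Slc5a9.

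**Figure D2:**
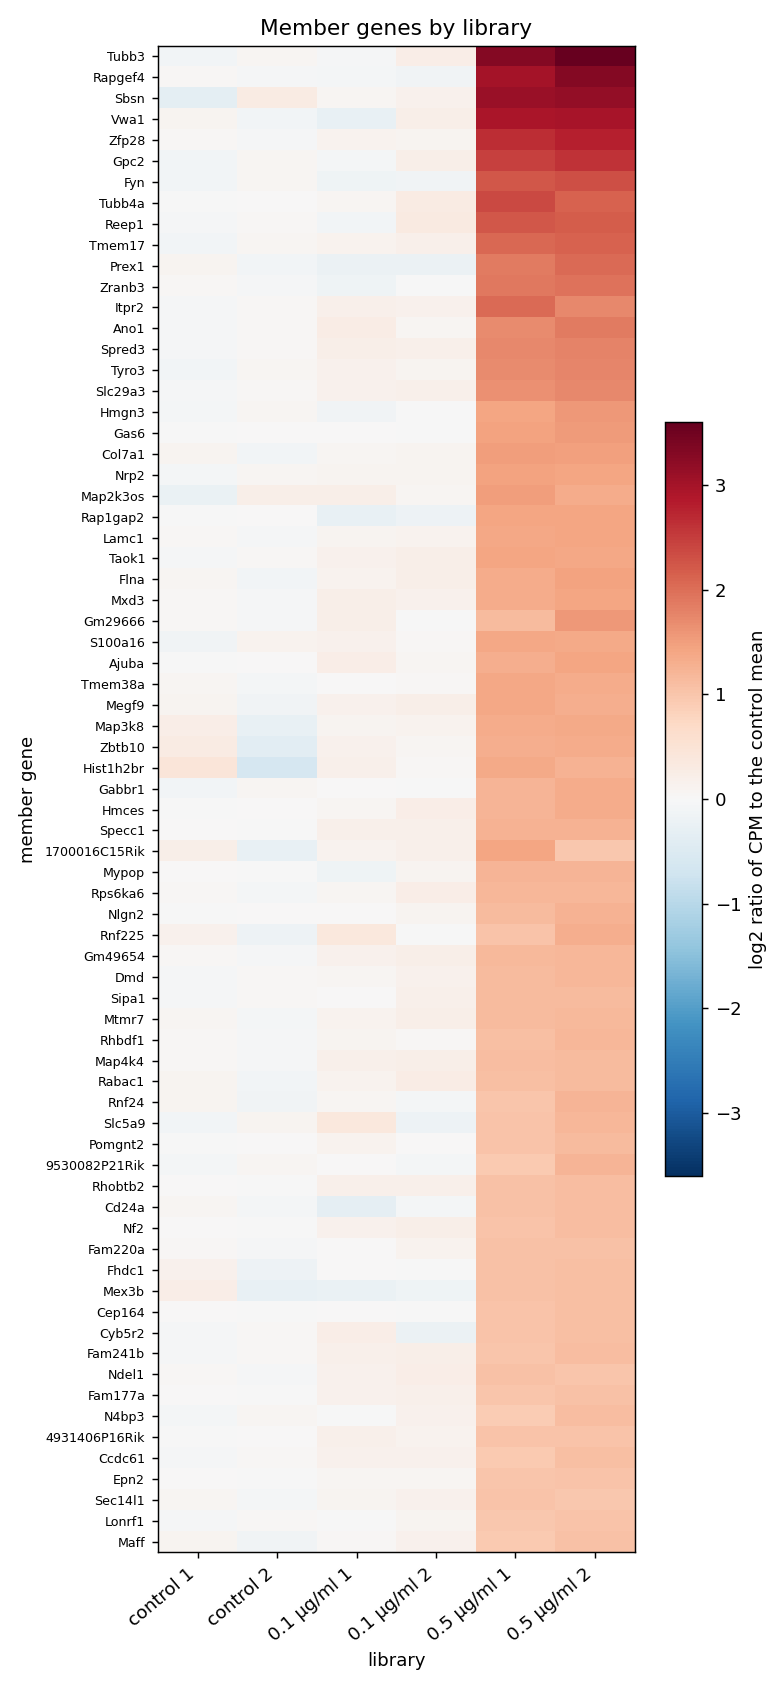
Log2 ratio of CPM to the control mean (colour) for 72 members (rows, by falling high-dose ratio) in each of the 6 libraries (columns). The control and low-dose columns are pale, and both high-dose columns are redder than these in every row. The red is strong for Tubb3 with a ratio of 11.3 and only a light tint for Maff with 2.0.

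Within the window, members varied at the low dose. The members' low-dose ratio had a median of 1.08 and was above 1 in 61 of 73 (83.6%), against 3236 of the 7864 genes in the window (41.1%), whose median was 0.980. Nothing is read from that difference, since the rule set a window on this ratio and its condition at the high dose shares the control mean. Both low-dose libraries were above both controls in 35 members, below both in 5, and overlapped the controls in 33. Of the 7864 genes in the window, 21.7% had both low-dose libraries above both controls and 35.1% both below. Over all genes at the control minimum the shares were 30.3% and 41.2%. In edgeR's quasi-likelihood test over 16975 genes, with Benjamini-Hochberg adjustment at 0.05, 20.8% of genes were called higher at the low dose than in control and 13.8% lower. Of the members, 13 (17.8%) were called higher (Slc29a3, Taok1, Flna, Megf9, Specc1, Map4k4, Rabac1, Rhobtb2, Nf2, Fam241b, Ndel1, Fam177a and 4931406P16Rik) and 1 (1.37%) lower, Rap1gap2. The share called higher was near that of all genes, and the window limited both shares. For these 14 genes the test also called a difference at the low dose, of a size within the window. In the same test 34.4% of genes were called higher at the high dose than in control and 29.8% higher at the high than at the low dose. All 73 members were called in both, which the rule made likely and from which nothing is read. The 3 comparisons share libraries and are not independent. The test scaled counts by TMM library factors, whereas the printed ratios are of CPM. Against CPM, TMM factors moved the high-dose ratio to control up by 0.087 on the log2 scale. A gene with a CPM ratio near 1 could thus be called higher.

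The highest ratios were in genes of low control level, whereas the largest differences in CPM were in abundant members such as Cd24a. Tubb3, a beta tubulin isotype best known from neurons, had 1.31 and 1.47 CPM in the control libraries, 1.34 and 1.65 at the low dose, and 13.7 and 17.6 at the high dose, a ratio of 11.3 between the 0.5 µg/ml and control means. Rapgef4, which encodes the cyclic AMP-activated Rap exchange factor EPAC2, had 1.39 and 1.32 CPM in control, 1.28 and 1.24 at the low dose, and 10.7 and 13.3 at the high dose, a ratio of 8.86. Sbsn, the gene of suprabasin, a secreted protein of stratified epidermis, had 2.28 and 3.55, then 3.07 and 3.25, then 25.0 and 26.4 CPM, a ratio of 8.82. In each of the 3 genes the CPM of the control and low-dose libraries lay together and both high-dose libraries stood far above them. Vwa1, a von Willebrand factor A domain protein of the extracellular matrix, had 1.31 and 1.14 CPM in control, 1.01 and 1.40 at the low dose, and 9.34 and 9.46 at the high dose. Zfp28, a KRAB zinc-finger gene, had 5.18 and 4.92, then 5.50 and 5.46, then 31.9 and 35.3 CPM. Gpc2, a glypican (a cell-surface heparan sulfate proteoglycan), had 5.07 and 5.70, then 5.18 and 6.27, then 29.9 and 32.9 CPM. The ratios of these 3 were 7.70, 6.66 and 5.83.

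**Figure D3:**
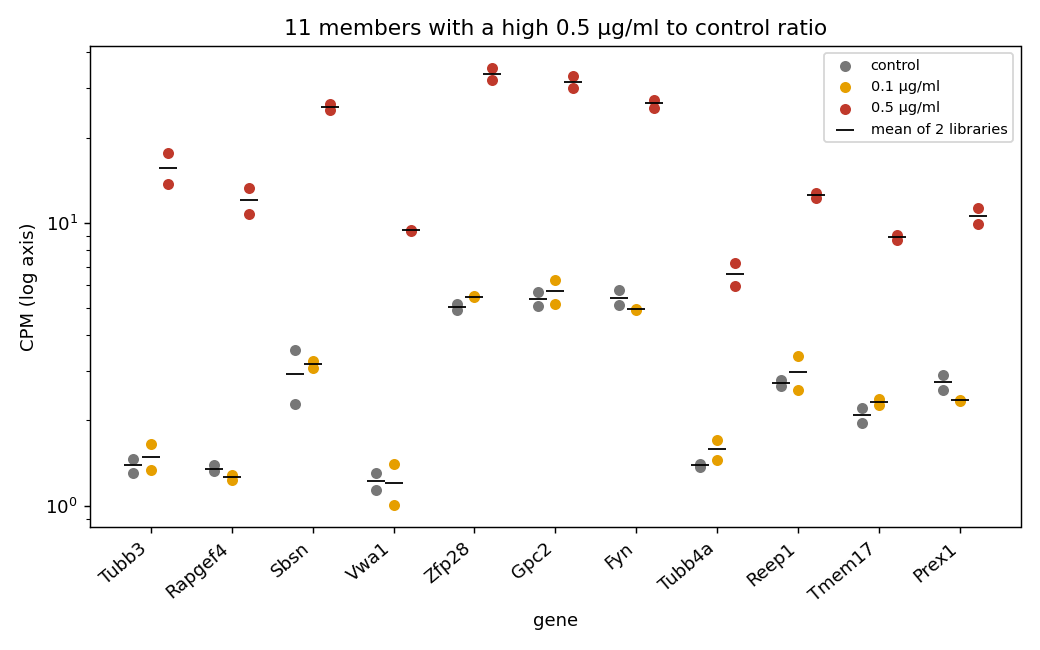
CPM on a log axis for 11 of the members with the highest ratios of 0.5 µg/ml to control, with 1 point per library and a bar at the mean of the 2 libraries of a group. Control and low-dose points lie close together for each gene, and the high-dose points stand apart, from 5.98 CPM for the lower Tubb4a library to 35.3 CPM for the higher Zfp28 library.

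Regulators of the Hippo pathway were among the most abundant members. In this pathway MST and MAP4K kinases activate LATS kinases, which hold the coactivators YAP and TAZ out of the nucleus, and in the intestine YAP is known for its part in regeneration. Nf2, whose product merlin acts upstream of LATS, had 116 and 114 CPM in control, 128 and 132 at the low dose, and 235 and 248 at the high dose. Taok1, a kinase that activates MST kinases, had 89.3 and 96.2, then 103 and 106, then 248 and 243 CPM. Map4k4, a kinase that acts on LATS beside MST, had 127 and 118, then 138 and 142, then 263 and 271 CPM. In these 3 genes both low-dose libraries were a little above both controls, and the distance to 0.5 µg/ml was many times larger. Ajuba, a LIM-domain protein that restrains LATS, had 7.39 and 7.63 CPM in control, 8.84 and 7.95 at the low dose, and 18.4 and 20.2 at the high dose.

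Other genes of the pathway did not share one pattern. In a list of 30 Hippo genes drawn up after the members were known, all 30 met the control minimum, 4 were members, 10 were at least 2-fold higher at the high dose, and 2, Amot and Tnik, were at or below 0.5 times control. In edgeR's test 19 of the 30 were called higher and 6 lower at the high dose than in control, the 4 members among the higher ones, and 11 higher and 1 lower at the low dose. The 19 included Yap1 and Mob1b, whose high-dose CPM ratios were 1.02 and 1.05. Over all genes tested the shares were 34.4% and 33.1% at the high dose, and 20.8% and 13.8% at the low dose. Lats2 was already higher at the lower dose, at 2.75 CPM in control, 5.67 at the low dose and 17.1 at the high dose. So was Wwtr1, the gene of TAZ, at 6.90, 17.9 and 46.3 CPM, and Map4k1 at 1.23, 5.97 and 26.5 CPM. Yap1 itself was at 121, 111 and 124 CPM, and the MST genes Stk3 and Stk4 had high-dose ratios of 1.02 and 0.955. Amotl2, an angiomotin family gene with 8.72, 7.26 and 20.1 CPM, missed the set by its low-dose ratio of 0.833. Of 24 YAP and TAZ target genes, 22 were tested, and 12 were called higher and 7 lower at the high dose than in control, with a median log2 fold change of 0.58, where the median of all genes tested was 0.0. Ajuba was the only member among them.

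**Figure D4:**
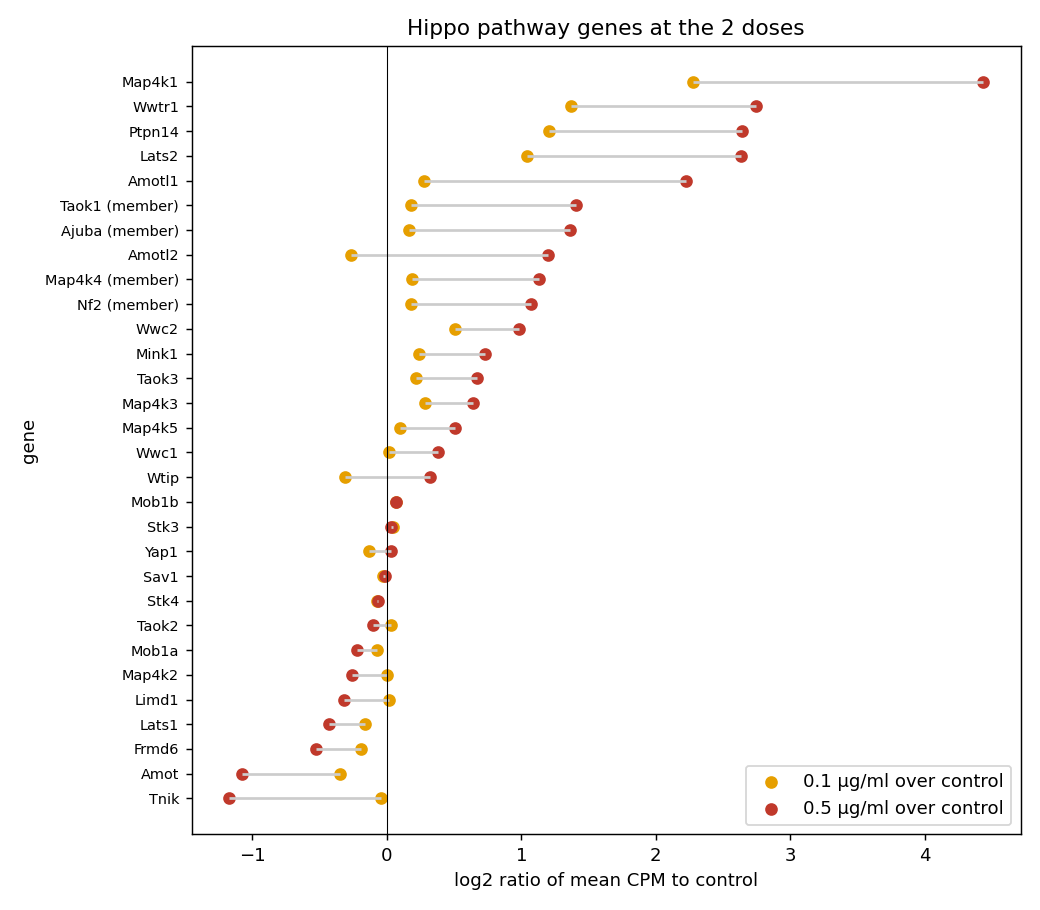
Log2 ratio of mean CPM to control for 30 Hippo pathway genes at the low dose (orange) and 0.5 µg/ml (red), joined by a line for each gene. The 4 members lie between log2 values of 1 and 1.5 at the high dose with their low-dose points just right of 0, whereas Map4k1, Wwtr1, Ptpn14 and Lats2 are to the right of 1 at both doses.

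Gas6 and its receptor Tyro3 were both members. GAS6 is a secreted, vitamin K-dependent ligand of the TAM receptor kinases TYRO3, AXL and MERTK, and PROS1 is a related ligand. Gas6 had 19.98 and 20.2 CPM in control, 20.4 and 19.7 at the low dose, and 54.5 and 58.2 at the high dose. Tyro3 had 8.20 and 9.22, then 9.64 and 9.24, then 28.4 and 29.5 CPM. The remaining genes of the family lay the other way at the high dose, and edgeR called all 3 lower, where 33.1% of all genes tested were. Mertk averaged 12.7 CPM in control, 15.0 at the low dose and 5.36 at the high dose, Pros1 3.53, 1.60 and 0.603 CPM, and Axl 0.372, 0.179 and 0.0592 CPM. On the per-length scale Tyro3 stood at 2.83 TPM ± 0.474 (SD, n = 2) in control and Mertk at 3.52 TPM.

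Beside Tubb3, another beta tubulin gene was a member. Tubb4a, a second neuron-enriched beta tubulin, had 1.37 and 1.41 CPM in control, 1.45 and 1.71 at the low dose, and 7.20 and 5.98 at the high dose. Of 8 beta tubulin genes, 7 met the control minimum, and 4 of those were at least 2-fold higher at the high dose. The 2 that were not members, Tubb2a at 28.7, 52.8 and 77.0 CPM and Tubb6 at 3.70, 6.58 and 16.4 CPM, were already well above control at the low dose. The abundant isotypes Tubb4b and Tubb5 had ratios of 1.20 and 1.03 at the high dose. All 7 beta tubulins tested were called higher, where 34.4% of all genes tested were. The calls rest on TMM scaling, and Tubb5 was among them although its high-dose and control libraries overlapped in CPM. Beta tubulins are similar in sequence, and the division of shared reads among them is uncertain.

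Reep1, whose product shapes the endoplasmic reticulum, had 2.65 and 2.79, then 2.56 and 3.38, then 12.7 and 12.2 CPM. Nlgn2, a neuroligin of inhibitory synapses, and Gabbr1, a subunit of the GABA-B receptor, averaged 21.8 and 23.5 CPM in control and had ratios of 2.28 and 2.44. In the list of neuron and glia markers Tubb3 was the only member, and of 5 tested 2 were called higher and 3 lower at the high dose. Over all genes tested the shares were 34.4% and 33.1%. The summed neuron and glia markers were 3.76 to 3.93 CPM in control, 2.83 to 3.40 at the low dose and 15.3 to 19.8 at the high dose, of which Tubb3 alone gave most at the high dose. Elavl4 averaged 0.248 CPM in control and 0.00929 at the high dose, and Snap25 0.548 and 0.072, while Rbfox3 was at 0.103 and 1.3. The part of neuronal cells in these values was not tested. In bulk RNA a change in the number of cells that express a gene and a change in RNA per cell cannot be told apart, here and for every member.

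Other members, put together here by their known roles, encode proteins of the cytoskeleton and of cilia. Flna, an actin cross-linker, had 100.1 and 89.1 CPM in control, 102 and 109 at the low dose, and 239 and 259 at the high dose. Specc1, a coiled-coil protein of the cytospin family, averaged 53.4 CPM ± 0.193 (SD, n = 2) in control and 127 CPM at the high dose. Fhdc1, a formin, and Ndel1, a partner of dynein, had ratios of 2.09 and 2.04. Tmem17, a protein of the ciliary transition zone, had 1.97 and 2.21, then 2.27 and 2.39, then 8.72 and 9.07 CPM. Cep164, needed at the mother centriole's distal appendages to form a cilium, averaged 32.0, 32.1 and 66.7 CPM, and Ccdc61, a centrosomal protein, had a ratio of 2.02. In a family of 181 cytoskeleton and motor genes that met the control minimum, chosen by symbol pattern, 3 were members (Flna, Tubb3 and Tubb4a). Members were 0.576% of all genes at the control minimum, and from 3 genes nothing is read. Of the 227 of that family that were tested, 130 were called higher and 63 lower at the high dose, and 94 higher and 41 lower at the low dose. Their median log2 fold change at the high dose was 0.41. Over all genes tested, 34.4% were called higher and 33.1% lower at the high dose, and the median was 0.0.

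Several members act on Rap and Rac GTPases, small switches of adhesion and of actin. Rap1gap2, which turns Rap1 off, was the only member called lower at the low dose, with 68.3 and 69.7 CPM in control, 57.7 and 60.3 at the low dose, and 184 and 185 at the high dose. Sipa1, a second Rap-inactivating protein, had a ratio of 2.22. In a list of 17 Rap genes drawn up after the members were known, Rapgef4, Rap1gap2 and Sipa1 were the only ones at 2-fold or more, and the related Rapgef5 and Rap1gap stood at 0.288 and 0.295 times control. Of the 17, 11 were called higher and 4 lower at the high dose, the 3 members among the higher ones. Over all genes tested 34.4% were called higher and 33.1% lower. Prex1, a Rac exchange factor, had 2.90 and 2.56 CPM in control, 2.34 and 2.37 at the low dose, and 9.94 and 11.3 at the high dose. Rhobtb2, an atypical small GTPase, had a ratio of 2.12. The family of small GTPases and their regulators held 263 genes at the control minimum and 302 tested genes, of which 135 were called higher and 97 lower at the high dose, with a median log2 fold change of 0.12.

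Kinase signalling was represented by Fyn and by genes around the MAP kinases. Fyn, a SRC family tyrosine kinase, had 5.12 and 5.77 CPM in control, 4.94 and 4.94 at the low dose, and 25.5 and 27.2 at the high dose. Both of its low-dose libraries were thus just below both controls, and both high-dose libraries more than 4 times the highest of them. Map3k8, a kinase upstream of ERK, Rps6ka6, an RSK family kinase, and Spred3, an inhibitor of RAS to ERK signalling, had ratios of 2.53, 2.30 and 3.38. Spred3 had 4.00 and 4.23 CPM in control, 4.71 and 4.65 at the low dose, and 13.6 and 14.2 at the high dose. Its relative Spry4 was higher at both doses, at 2.16, 7.56 and 31.2 CPM, and of the 6 Sprouty and Spred genes tested 3 were called higher and 3 lower at the high dose. Spred2, called higher, had a high-dose CPM ratio of 1.04. Map2k3os, annotated on the strand opposite Map2k3, had a ratio of 2.68. The MAP kinase family held 82 genes at the control minimum, of which 5 were members (Map4k4 among them), where 0.576% of all such genes were members. Of 88 tested genes 42 were called higher and 28 lower at the high dose, with a median of 0.16. Over all genes tested 34.4% were called higher and 33.1% lower, and the difference was not tested.

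Matrix and adhesion genes ranged from abundant to scarce. Lamc1, the gamma 1 chain shared by most laminins of basement membrane, had 61.9 and 58.4 CPM in control, 63.8 and 65.1 at the low dose, and 159 and 162 at the high dose. Col7a1, the collagen of anchoring fibrils, averaged 1.99, 2.12 and 5.57 CPM. Dmd, which encodes dystrophin, and Pomgnt2, an enzyme that builds the laminin-binding sugar of dystroglycan, had ratios of 2.25 and 2.12. The rest of the dystrophin and dystroglycan genes lay at or below control more often than above it. In a list of 21 drawn up afterwards, 15 met the control minimum, only Dmd and Pomgnt2 were at 2-fold or more, and the median ratio was 0.748. Of 17 tested, 3 were called higher, the members Dmd and Pomgnt2 among them, and 11 lower at the high dose, beside 34.4% and 33.1% of all genes. Dag1, which encodes dystroglycan itself, averaged 434 CPM in control, 345 at the low dose and 215 at the high dose, and Utrn, a relative of dystrophin, 111, 85.4 and 61.6 CPM. Megf9, a membrane protein with laminin-like EGF repeats, had a ratio of 2.54.

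Surface receptors and channels were also present. Cd24a, a heavily glycosylated surface protein used to sort intestinal epithelial cells, was the most abundant member, with 256 and 236 CPM in control, 196 and 235 at the low dose, and 512 and 526 at the high dose. Nrp2, a coreceptor for class 3 semaphorins and VEGF, had 17.2 and 18.8, then 19.4 and 19.4, then 48.9 and 48.3 CPM. The paralogue Nrp1 lay the other way, at 10.3 CPM in control, 2.43 at the low dose and 0.495 at the high dose. Of 6 class 3 semaphorin receptor genes tested, 4 were called higher, the member Nrp2 among them, and 2 lower at the high dose. Over all genes tested the shares were 34.4% and 33.1%. Itpr2, a calcium release channel gated by inositol trisphosphate, had 9.11 and 9.71, then 10.8 and 10.4, then 38.9 and 31.0 CPM. Its paralogue Itpr1 averaged 20.7, 12.9 and 6.77 CPM, and Itpr3, the most abundant of the 3 at 39.4 TPM in control, 294, 357 and 507 CPM. Ano1, a calcium-activated chloride channel, had 11.5 and 12.3, then 14.3 and 12.6, then 38.9 and 43.6 CPM. In a list of 13 inositol trisphosphate receptors and TMEM16 channels, 12 were tested, and 6 were called higher and 3 lower at the high dose. The members Itpr2 and Ano1 were among the higher ones. Tmem38a, a cation channel of intracellular calcium stores, had a ratio of 2.55. Slc29a3, a nucleoside transporter of lysosomes and mitochondria, had 19.2 and 19.96, then 21.9 and 21.99, then 60.7 and 65.2 CPM. Slc5a9, a sodium-coupled sugar transporter, had a ratio of 2.15. Of the 235 solute carriers at the control minimum these 2 were members, where 0.576% of all such genes were. Of 288 tested 101 were called higher and 116 lower at the high dose, with a median log2 fold change of -0.09. The share called higher was near the 34.4% of all genes tested, of which 33.1% were called lower.

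In the nucleus, Zranb3, a translocase that remodels stalled replication forks, had a ratio of 3.80, with 13.3 and 12.5 CPM in control, 11.7 and 12.7 at the low dose, and 48.0 and 50.02 at the high dose. Hmces, which shields abasic sites in single-stranded DNA, averaged 16.9, 18.9 and 40.8 CPM. Among transcriptional regulators, Mxd3, a partner of MAX that represses E-box genes, had a ratio of 2.60, Zbtb10 2.5, Mypop 2.33 and the small MAF factor Maff 2.0. Hmgn3, a nucleosome-binding protein, had a ratio of 2.83, and the RNA-binding protein gene Mex3b 2.08. Hist1h2br, a histone H2B gene with near-identical copies, had 1.53 and 0.752 CPM in control and 2.91 and 2.71 at the high dose, and its value is uncertain for that reason. Of 444 zinc-finger genes tested, 107 were called higher and 181 lower at the high dose, with a median log2 fold change of -0.12. Over all genes tested 34.4% were called higher and 33.1% lower, and the median was 0.0. In the family 2 genes, Zfp28 and Zbtb10, were members, where 0.576% of all genes at the control minimum were. From 2 genes nothing is read.

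The remaining members, named after their values were known, have scattered roles. In membrane traffic and lipid handling, ratios were 2.17 for Rabac1, a RAB acceptor, 2.01 for the endocytic epsin Epn2, 2.01 for Sec14l1, 2.21 for the phosphoinositide phosphatase gene Mtmr7, and 2.21 for Rhbdf1, which encodes an inactive rhomboid of growth factor release. Ratios were 2.17, 2.27 and 2.01 for the RING finger genes Rnf24, Rnf225 and Lonrf1, 2.58 for the calcium-binding S100a16, 2.07 for the reductase gene Cyb5r2 and 2.03 for N4bp3. For genes with little known of them, ratios were 2.03 for Fam177a, 2.09 for Fam220a, 2.07 for Fam241b, 2.03 for 4931406P16Rik and 2.33 for 1700016C15Rik. The others were Gm29666 at 2.58, Gm49654 at 2.26 and 9530082P21Rik at 2.12. By biotype, 70 of the 73 (95.9%) were protein coding, against 91.3% of genes at the control minimum, and the members lay on many chromosomes. No member was in the lists of enterocyte, goblet, Paneth, enteroendocrine, tuft, stem cell or fetal-like markers. No member was in those of the pluripotency network, p53 targets, hypoxia, the unfolded protein response, NRF2 or interferon-stimulated genes either. Each of these lists held 3 to 28 genes at the control minimum, where 0.576% of all such genes were members. Nothing is read from these absences. Of the 73 members, 40 were in no list or family examined.

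A count and a TPM value of the same gene give a further measure. The choice of members used the counts but not the TPM values, so the measure is not independent of that choice. The ratio of expected count to TPM, centred on the median of the library, follows the effective length of the transcripts to which the reads of a gene were assigned. It was expressed as log2 relative to the control mean, and this measure and its threshold of 0.2 were chosen after the members' values had been seen. It could be taken in 69 members, of which 52 stayed within 0.1 of control at the high dose. Both high-dose libraries were over 0.2 longer, and above both controls, in 3 members (4.35%), against 1.21% of 12076 genes. They were over 0.2 shorter, and below both controls, in 5 members (7.25%), against 1.66% of those genes. With 8 genes in all these shares are imprecise and were not tested. The 12076 genes were not limited to those changed at the high dose, so nothing is read from the difference in shares.

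Rapgef4 had the largest shift. Its effective length on the log2 scale was 0.71 and 0.63 above the control mean in the high-dose libraries, and 0.04 and -0.27 in the low-dose libraries. On the TPM scale its log2 ratio of 0.5 µg/ml to control was accordingly 2.49, against 3.15 in CPM. Prex1 was 0.33 and 0.42 longer and Rap1gap2 0.22 and 0.21 longer at the high dose. The shift went the other way in Sbsn, at -0.46 and -0.50, which was also shorter at the low dose (-0.48 and -0.25) although its CPM there was near control. Fam241b was at -0.34 and -0.33, Zranb3 at -0.25 and -0.37, Cep164 at -0.26 and -0.28, and Dmd at -0.26 and -0.24 in the high-dose libraries. Dystrophin is known to be made in several lengths from internal promoters. Which transcripts carried the reads was not analysed here.

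**Figure D5:**
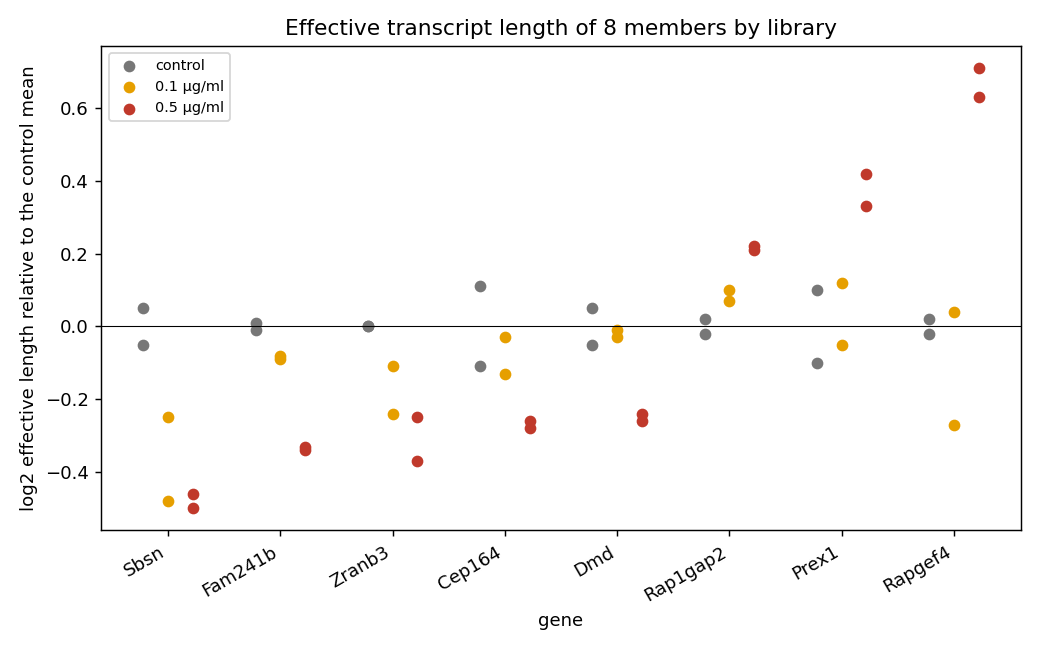
Effective transcript length per library for the 8 members past the threshold, as log2 relative to the control mean, with grey points for control, orange for 0.1 µg/ml and red for 0.5 µg/ml. Rapgef4, Prex1 and Rap1gap2 lie above 0.2 in both high-dose libraries and the other 5 genes below -0.2.

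For some members the reads could belong to a neighbour, since the sources used here do not say how strand was treated in the counting. Mxd3, at 3.14 CPM in control, overlaps Prelid1 on the opposite strand, which was at 393, 390 and 341 CPM. Cyb5r2, at 1.15 CPM, overlaps Ppfibp2, which itself was higher at each dose at 25.5, 38.5 and 58.8 CPM. Mtmr7 overlaps Vps37a at 37.0, 38.5 and 40.4 CPM, Rnf24 overlaps Pank2 at 44.1, 36.9 and 28.7 CPM, and 9530082P21Rik overlaps Flywch1 at 24.4, 21.1 and 14.8 CPM. Fam241b overlaps Neurog3, which stood at 15.5, 6.47 and 1.86 CPM. Apart from Ppfibp2 and Vps37a, these partners had a lower mean at the high dose than untreated. Fam220a is listed under 2 gene identifiers, and the other one was at 0.673, 1.23 and 4.02 CPM.

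Membership at the edges turned on small differences. Near the control minimum, Hist1h2br at 1.141 CPM was in, with Fstl3 at 0.989 and Arhgef4 at 0.942 just outside. At the lower bound of the low-dose ratio, Rap1gap2 at 0.855 and Prex1 at 0.863 were in, and Amotl2 at 0.833 and Dpysl5 at 0.823 were out. At the upper bound Rabac1 at 1.147 and Specc1 at 1.145 were in, and Ehf at 1.158 and Sgk1 at 1.159 were out. For the ratio at the high dose, Maff at 2.003 and Sec14l1 at 2.005 were in, and 4632411P08Rik at 1.995 and Odc1 at 1.994 were out.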

How the data were processed

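Poly-A RNA of mouse small intestinal organoids was made into strand-specific libraries and read as 100 bp pairs, per the labels' protocols. Per the submitters' processing notes, reads went through FastQC, Trim Galore, RSEM 1.3.3 and STAR 2.7.3a; the builds GRCm39 and mm10 are both listed, with no role. The authors deposited a gene table of expected counts, RSEM's estimates, which can be fractional. A second table deposited by the authors holds TPM, a share per transcript length that carries no depth.

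The members were found from CPM computed over column sums. Members and gene lists were chosen with earlier results of these data known. Expected counts were rounded, filtered with filterByExpr, scaled by TMM (factors 0.964 to 1.04) and fitted with edgeR 4.0.16 in R 4.3.3. All 6 libraries entered one fit of 3 group means, with 3 residual degrees of freedom, and two-sided tests with Benjamini-Hochberg adjustment at 0.05 gave the share of all genes called. The test was also run on simulated data with a single spread for all genes and few genes changed. There 5.21% of the genes called were false. Far more genes were called in the real data, so that share does not carry over to them. For 1 gene alone, the smallest exact p in groups of 2 is 0.333. DESeq2 1.42.0 and limma 3.58.1 on log2(TPM + 1) were alternatives, beside other scalings, other bounds and each library left out.

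Genes were named by rule: the 12 highest ratios, the 8 highest levels at 0.5 µg/ml, the 3 most abundant members in each family with 2 or more, the genes nearest each bound and the 4 factors. One member is not reported here. The other members, and the lists of Hippo, TAM, tubulin, dystrophin, Rap, semaphorin receptor, Sprouty and calcium channel genes, were added once values were known. Symbols, biotypes, chromosomes and overlaps came from GENCODE M21, which matched 52083 identifiers (94.0%). Since either build may be that of the tables, no coordinates are taken from them, and the promoters are RefSeq's on GRCm38.p6. Replicates of a group differed beyond counting noise, with a chi-square of 8.24 to 9.35 per degree of freedom.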

Additional observations from a re-analysis of the deposited data

Results flagged for a closer look

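In 5 members both 0.1 µg/ml libraries lay below both controls while both 0.5 µg/ml libraries lay above them, so that the 2 doses stood on opposite sides of control. Both 0.1 µg/ml libraries were below both controls in 41.2% of genes at the control minimum and in 35.1% of those in the window. The ratio of the 0.1 µg/ml mean to the control mean was 0.929 for Rapgef4, 0.908 for Fyn, 0.863 for Prex1, 0.855 for Rap1gap2 and 0.877 for Cd24a. The difference in direction was not tested, since the rule fixed the 0.5 µg/ml side. For Cd24a the second 0.1 µg/ml library, at 235.1 CPM, was just under the lower control at 235.5. In edgeR's test Rap1gap2 was the one of the 5 called lower at 0.1 µg/ml, where 13.8% of all genes were.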

How the results depend on the processing

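The number of members depended on the bounds. It was 73 as reported, 47 with a control minimum of 5 CPM, 245 with no minimum above 0, 40 with a 0.1 µg/ml window of 0.9 to 1.1, 139 with 0.8 to its reciprocal, 321 from a 1.5-fold ratio and 18 from a 3-fold ratio. It was 87 under TMM, 99 under upper quartile scaling, 96 under DESeq2's size factors and 60 on TPM, which kept 59, 71, 63 and 44 of the 73. Leaving out 1 library at a time gave 70 to 84 genes. Across these scalings, TPM and left-out libraries 15 members were kept in all 10 settings, among them Fyn, Gas6, Nrp2, Lamc1, Dmd, Zranb3 and Slc29a3. All 3 other scalings of counts kept 58 members. Those lost under at least 1 of these scalings included Nf2, Map4k4, Rap1gap2, Spred3, Mxd3, Specc1 and Tubb4a. DESeq2's size factors moved the 0.5 µg/ml to control ratio of all genes by 0.105 on the log2 scale. For 39 named genes, 47 of 390 recomputed 0.5 µg/ml ratios and 19 of 390 recomputed 0.1 µg/ml ratios moved by more than the spread between replicates. On TPM the log2 ratio at 0.1 µg/ml was 0.57 for Zfp28, 0.46 for Sbsn and 0.42 for Itpr2.

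Over all genes, 11465 were called between 0.5 µg/ml and control (10080 to 11633 without 1 library), 5881 between 0.1 µg/ml and control (3800 to 5248) and 10002 between the doses (8120 to 10269). The lowest 0.1 µg/ml count, 3800, came without the first 0.1 µg/ml library, the deepest, and limma on TPM gave 3505; the cause was not tested. Deviations of same-numbered libraries correlated at -0.039, 0.0767 and 0.01 across the 3 pairs of groups. A correlation over all genes cannot settle whether same-numbered libraries shared an origin, which could affect few genes. With the replicate number as a block the counts were 11162, 5265 and 9607. Upper quartile scaling split the calls at 0.5 µg/ml into 5121 higher and 6592 lower, against 5839 and 5626. With 2 libraries per group the spread of a single gene is poorly known, and members near 1 CPM rest on few counts.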
